A study of Mus musculus with 8 samples.

Results

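The effect of Nanog overexpression in mouse colon was described across 8310 genes, out of 8607 genes tested in the whole series. A gene belonged to this set when its probe had a detection p-value under 0.01 on both colon arrays with Nanog or on both colon arrays without it. One group was colon cells labelled as overexpressing Nanog (Colon+), with 2 biological replicates, and the control was colon cells labelled as not overexpressing Nanog (Colon-), also with 2. The other 4 arrays of the series held intestine with and without Nanog, 2 of each, and entered the fit as a shared estimate of the spread between replicates. The promoter and cell type that drove Nanog, the time of expression, the mouse strain and age, and whether the replicates were separate animals are not stated in the labels, so p-values measure the spread between these samples.

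Nanog is a homeodomain transcription factor that maintains the pluripotent state of embryonic stem cells. The colon wall is lined by crypts in which stem cells, kept by Wnt and Notch signals, give rise to absorptive colonocytes, mucus-filled goblet cells and hormone-secreting enteroendocrine cells. Under the epithelium lie fibroblasts, lymphocytes, smooth muscle, nerves, vessels and fat, so RNA of a whole tissue piece holds all of these. The title of the series gives hyperplasia of the intestine and colon as the setting. In such samples, fewer cells of a type and less RNA per cell cannot be told apart.

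The single Nanog probe was below background on all 4 colon arrays. Its raw intensity was 84.9 and 88.4 with Nanog, against 94.6 and 88.5 in controls, with detection p-values of 0.817 and 0.221 against 0.172 and 0.528. The labels do not say which part of Nanog was expressed or whether this probe can read it, so the probe checks nothing about them. Between 11568 and 11993 of 25697 probes were detected per colon array, and the median raw intensity was between 96.2 and 102.7. Over the 8310 colon genes the replicates correlated with r = 0.966 with Nanog and 0.965 in controls, across genes, which are not independent replicates, and arrays of different groups with r between 0.908 and 0.948. The 2 arrays per group limit the precision of every value. Of 12 colon epithelium markers on the array, 10 were detected on each Nanog array, against 10 and 11 on the control arrays. Hoxb13 was below background on all 4 arrays and Slc26a3 on all but control replicate 2. The summed normalized intensity of the 12 markers was 30636 and 24517 with Nanog, against 44468 and 58756 in controls. The part of epithelial content in the results below was not tested. Only 2 or 3 of 7 small intestine markers were detected on any of the 4 colon arrays.

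Replicate 2 of colon with Nanog stood apart from the other colon arrays in the digestive enzyme genes of pancreatic acinar cells. All 12 acinar markers on the array were detected on both Nanog arrays, against 3 and 10 on control replicates 1 and 2. Their summed normalized intensity was 7865 and 180390 with Nanog, against 5463 and 8084 in controls. The second Nanog array is therefore far above the other 3 colon arrays, and the first lies within the range of the controls in this sum. In the mean log2 intensity of the 12 markers the first lies above both controls. That mean was 7.83 and 13.79 with Nanog, against 5.38 and 7.17 in controls. In intestine the same sum was 5311 and 239920 with Nanog, against 2398 and 22811 in controls, so replicate 2 was the higher in all 4 groups. The part of these acinar signals in the results below was not tested. Results without colon Nanog replicate 2 are given for some genes and lists below, and not for every one that differs.

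At a Benjamini-Hochberg adjusted p under 0.05, 19 of the 8607 genes passed limma's moderated test in colon, which is 0.221% of the genes tested. Of these, 13 rose with Nanog (0.151%) and 6 fell (0.0697%), while the authors' values gave 12 that rose and 12 that fell, 13 of them among the 19. In all 19, each Nanog array differed from each control array by more than 2-fold. Over the 8310 colon genes, 127 were that far apart with Nanog higher and 148 with Nanog lower. The 19 were picked by a test on these same arrays, so their separation describes them and supports nothing. The genes that rose include the smooth muscle LIM protein Csrp1, the mitochondrial arginase Arg2, the colonic ion transport genes Best2 and Fxyd4, the glucocorticoid-induced genes Fkbp5, Ddit4 and Fam107a, and the elastic fibre gene Eln. Those that fell include the plasma cell gene Mzb1 and the BMP target genes Id1 and Id4. No gene passed in limma's fit without Nanog replicate 2 (526 at an unadjusted p under 0.05), without control replicate 1 (728) or without control replicate 2 (832), where the lone array is assumed to vary like the other groups, and 11 passed without Nanog replicate 1.

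**Figure D1:**
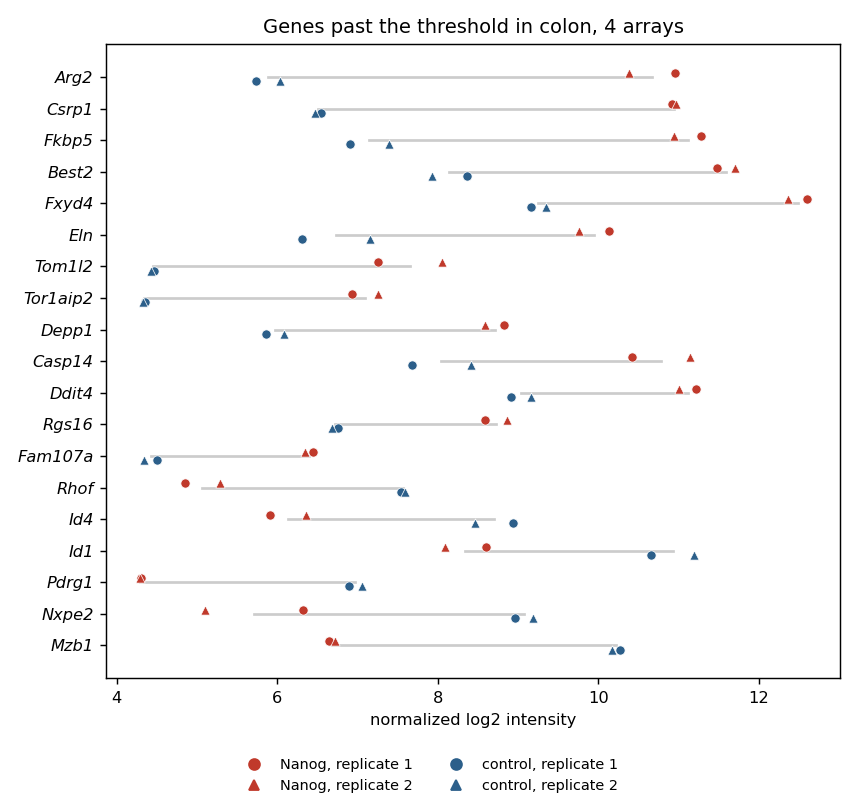
Normalized log2 intensity (horizontal axis) of the 19 genes that passed the threshold in colon, on the 2 Nanog arrays (red) and the 2 control arrays (blue), with circles for replicate 1, triangles for replicate 2 and grey lines joining the group means. The 2 groups do not overlap in any of these genes, which were picked by a test on these arrays, and Arg2 changes by 4.78 log2 units.

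Over the whole colon set the change was balanced. The mean was higher with Nanog in 4112 genes and lower in 4198, and the median log2 change was -0.007. The groups did not overlap in 53.5% of the genes, 26.6% with both Nanog arrays higher and 26.8% with both lower. At an unadjusted p under 0.05, 479 genes were higher and 591 lower with Nanog, together 12.9% of the set. The median SD between replicates was 0.143 log2 units with Nanog, against 0.208 in controls. When the model was fitted to the 4 colon arrays alone, 128 genes passed, 1.49% of the genes tested, and all 19 genes above were among them. Of the 128, 58 rose (0.674%) and 70 fell (0.813%). This fit leaves out the larger spread of the intestine arrays and rests on 2 residual degrees of freedom, and without Nanog replicate 2 it called 3 genes. Below, where adjusted p-values are given as a pair, the first is from the 4 colon arrays alone and the second from the 8-array fit. Counts of list genes that passed a fit are to be read against the shares of all genes tested in the same fit. Fam126a, Gimap6 and Defb45 lay closest to the threshold of the 8-array fit without passing it, each at an adjusted p of 0.0516. Fam126a had 6.86 and 7.04 with Nanog, against 8.45 and 8.74 in controls. Defb45, a defensin, had 9.38 and 9.40 with Nanog, against 7.88 and 7.43 in controls (0.0403 and 0.0516), and Gimap6, a lymphocyte GTPase, had 5.28 and 5.50, against 7.38 and 7.02 (0.0353 and 0.0516).

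**Figure D2:**
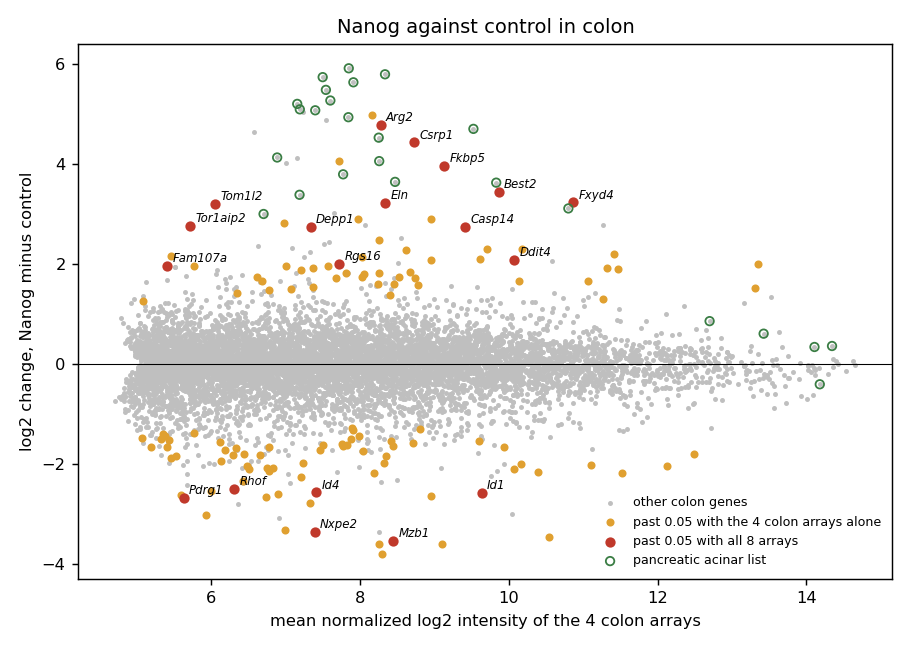
Log2 change, Nanog minus control (vertical axis), against the mean normalized log2 intensity of the 4 colon arrays (horizontal axis) for the 8310 colon genes, with the 19 genes that passed in red, further genes that passed in the 4 colon arrays alone in orange and the pancreatic acinar list ringed in green. Several ringed genes change more than any gene in red and none of them passed, and their 2 Nanog arrays lie far apart.

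Of the list of salt and water transport genes of the colon, Best2 and Fxyd4 rose. The arrays do not show which cells these signals came from. Best2 encodes bestrophin 2, an anion channel that mediates bicarbonate secretion in the colon. Its log2 intensity was 11.47 and 11.70 with Nanog, against 8.37 and 7.92 in controls, a rise of 3.44 ± 0.23 (SE, limma adjusted p = 0.0053). Fxyd4, a regulatory subunit of the sodium pump in kidney and distal colon, had 12.60 and 12.36 with Nanog, against 9.16 and 9.34 in controls, a rise of 3.23 ± 0.23 (SE, adjusted p = 0.0053). A second Fxyd4 probe gave 3.45. Both genes were detected on all 4 colon arrays and their groups lie far apart. Of the 27 measured genes of this transport list, 2 rose in the 8-array fit and none fell, against 0.151% and 0.0697% of all genes tested. In the colon arrays alone 4 rose, against 0.674%. The list median was -0.23, against -0.007 for all colon genes, and 0.033 without Nanog replicate 2. The other genes that rose in the colon arrays alone were Sgk1 and Scnn1b. Sgk1, the kinase that keeps the epithelial sodium channel at the cell surface, had 14.42 and 14.27 with Nanog, against 12.02 and 12.69 in controls (adjusted p = 0.0403 in the colon arrays alone, 0.0775 in the 8-array fit). Scnn1b, the beta subunit of that channel, had 9.02 and 9.97 with Nanog, against 7.11 and 6.91 in controls (adjusted p = 0.0403 and 0.0792 in the 2 fits). The other channel subunits were looked up after these values had been seen. Scnn1g had 9.12 and 10.51 with Nanog, against 6.67 and 7.90 in controls (8-array fit adjusted p = 0.226). Scnn1a had 8.31 and 7.79 with Nanog, against 8.21 and 8.35 in controls (8-array fit adjusted p = 0.844), so its groups overlap.

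Genes induced by glucocorticoids gave 3 that rose, against 0.151% of all genes tested. Fkbp5, a co-chaperone that restrains the glucocorticoid receptor and is itself a standard receptor target, had 11.28 and 10.95 with Nanog, against 6.90 and 7.39 in controls, a rise of 3.96 ± 0.40 (SE, adjusted p = 0.0212). Ddit4, which restrains mTORC1, had 11.22 and 11.01 with Nanog, against 8.92 and 9.16 in controls, a rise of 2.08 ± 0.26 (SE, adjusted p = 0.0397). Fam107a, an actin-binding stress gene, was detected only with Nanog, at 6.44 and 6.35, against values of 4.51 and 4.34 that were not well above background. This gives a rise of at least 2.63-fold (adjusted p = 0.0329). Such a bound takes the Nanog mean over the lowest signal that still counted as detected on the control arrays, or the probe's own signal where that is higher. Of the 25 measured genes of the list, 3 rose in the 8-array fit and none fell, and in the colon arrays alone 7 rose and 1 fell, against 0.674% and 0.813% of all genes tested. The median was 0.42, and between 0.40 and 0.57 when any 1 colon array was left out. The gene that fell in the colon arrays alone was Cidec, a lipid droplet gene.

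The list of FoxO targets and mTORC1 restraint also holds Ddit4 and gave 2 rises in the 8-array fit and 3 in the colon arrays alone, of 18 genes, against 0.151% and 0.674% of all genes tested. The median was 0.48, and 0.32 without Nanog replicate 1, and 0.087 over the 28 list genes on the array. Depp1, a FoxO target linked to autophagy, had 8.83 and 8.59 with Nanog, against 5.86 and 6.09 in controls, a rise of 2.74 ± 0.27 (SE, adjusted p = 0.0204). Eif4ebp3, a repressor of cap-dependent translation, had 9.33 and 9.01 with Nanog, against 7.41 and 7.28 in controls (adjusted p = 0.0353 in the colon arrays alone, 0.0863 in the 8-array fit). In the fasting and PPARA list none of 16 genes passed the 8-array fit, while in the colon arrays alone Pdk4 and Angptl4 rose and Cidec fell. Pdk4, which switches off pyruvate dehydrogenase in fasting, had 9.72 and 9.77 with Nanog, against 6.004 and 5.37 in controls (adjusted p = 0.0086 in the colon arrays alone, 0.0978 in the 8-array fit). The circadian clock list had no gene past the threshold in either fit, of 17, with a median of -0.36, and -0.19 without control replicate 1 and -0.69 without control replicate 2. Dbp, a clock output factor, had 9.19 and 7.91 with Nanog, against 12.29 and 10.80 in controls, and Nfil3, its antagonist, had 9.13 and 9.78, against 5.91 and 7.46 (8-array fit adjusted p = 0.179 and 0.118).

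Arg2, which splits arginine into ornithine and urea in mitochondria, changed by more than any of the other 18 genes that passed. It had 10.96 and 10.39 with Nanog, against 5.73 and 6.04 in controls, a rise of 4.78 ± 0.42 (SE, adjusted p = 0.0113). None of the other 10 measured genes of arginine metabolism passed either fit. Odc1, the next enzyme toward polyamines, had 9.83 and 10.02 with Nanog, against 10.78 and 11.04 in controls (adjusted p = 0.173). Casp14, a caspase of cornifying epidermis, had 10.42 and 11.15 with Nanog, against 7.68 and 8.41 in controls, a rise of 2.74 ± 0.33 (SE, adjusted p = 0.0397). The other 6 measured squamous genes did not pass, among them the cornified envelope gene Lor at 7.97 and 7.54 with Nanog, against 6.63 and 6.99 in controls. Rgs16, which speeds the shut-off of G protein signals, had 8.59 and 8.86 with Nanog, against 6.76 and 6.68 in controls, a rise of 2.00 ± 0.25 (SE, adjusted p = 0.043).

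Tom1l2 and Tor1aip2, genes of endosomal sorting and of the endoplasmic reticulum and nuclear envelope, were each detected only with Nanog on the probe that stands for them. Tom1l2 had 7.26 and 8.05 with Nanog, against 4.47 and 4.43 in controls, at least 6.30-fold higher (adjusted p = 0.0313). Tor1aip2 had 6.94 and 7.26 with Nanog, against 4.35 and 4.33 in controls, at least 4.28-fold higher (adjusted p = 0.0088). Other probes of these genes disagreed. A second Tor1aip2 probe, detected on all 4 arrays, changed by 0.018, another was not detected, and neither further Tom1l2 probe was detected. These calls therefore belong to a probe and not to all transcripts of the gene. Pdrg1 was the opposite case, with 4.30 and 4.29 with Nanog, not well above background, against 6.89 and 7.05 in controls, at least 3.81-fold lower with Nanog (adjusted p = 0.00585).

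Elastic fibre and matrix genes are made by fibroblasts and smooth muscle, and 1 of them, Eln, passed the 8-array fit. Eln, which encodes elastin, had 10.13 and 9.76 with Nanog, against 6.31 and 7.15 in controls, a rise of 3.22 ± 0.41 (SE, adjusted p = 0.043). It was the only gene of 12 elastic fibre genes that passed the 8-array fit, and 3 rose in the colon arrays alone, against 0.151% and 0.674% of all genes tested. The list median was 1.08, and 0.44 over all 16 of its genes on the array, detected or not. Lox, which crosslinks elastin and collagen, had 10.15 and 11.16 with Nanog, against 5.54 and 5.80 in controls (adjusted p = 0.0099 in the colon arrays alone, 0.117 in the 8-array fit). Mfap4, a microfibril glycoprotein, had 9.43 on both Nanog arrays, against 6.22 and 6.83 in controls (adjusted p = 0.0208 and 0.0521 in the 2 fits). Of 29 genes of fibroblasts and matrix, 24 had both Nanog arrays above both controls, against 26.6% of all colon genes, none passed the 8-array fit and 4 rose in the colon arrays alone, with a median of 1.10. Without Nanog replicate 2 that median was 0.95. Col1a1, a chain of type I collagen, had 10.09 and 10.74 with Nanog, against 7.56 and 7.46 in controls (adjusted p = 0.0221 and 0.0796), and Sparc, a collagen-binding matrix protein, had 12.53 and 12.50, against 10.33 and 10.31 (0.0173 and 0.0856).

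Of the smooth muscle genes, Csrp1 rose and no other passed. Csrp1 had 10.92 and 10.96 with Nanog, against 6.55 and 6.47 in controls, a rise of 4.43 ± 0.30 (SE, adjusted p = 0.0053), and it was the only gene of 19 that passed either fit. The list median was -0.15, and -0.098 without Nanog replicate 2, with 8 genes at a higher and 11 at a lower mean. Acta2, the smooth muscle actin, had 14.35 and 14.50 with Nanog, against 14.40 and 14.47 in controls, so its groups overlap. All 6 smooth muscle markers were detected on all 4 colon arrays, with a summed normalized intensity of 43393 and 43082 with Nanog, against 39269 and 42128 in controls. The same sum over 6 fibroblast markers was 14894 and 13887 with Nanog, against 7977 and 9193 in controls, and the part of fibroblast content in the matrix results was not tested.

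**Figure D3:**
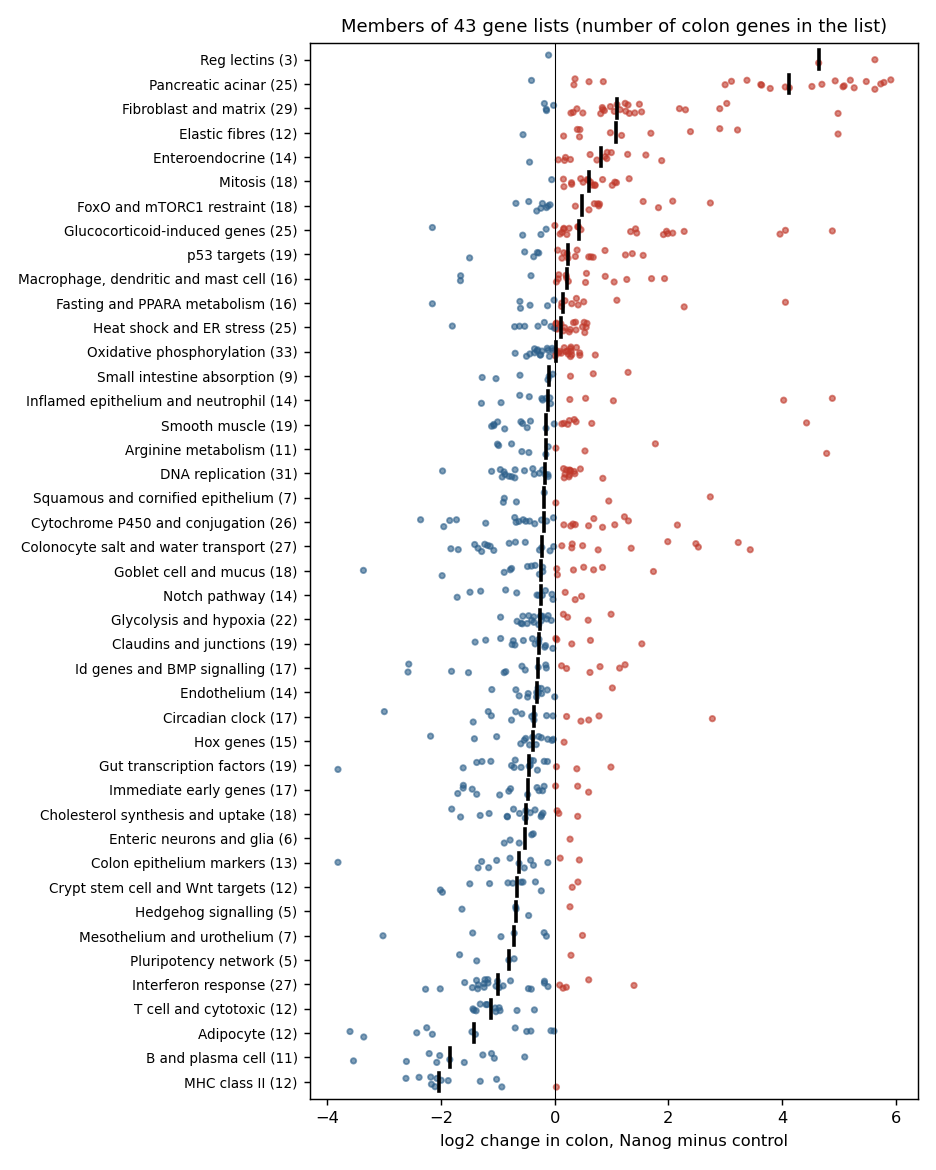
Log2 change in colon, Nanog minus control (horizontal axis), of each measured member of 43 gene lists, red where higher and blue where lower, with a black bar at the list median and the number of measured genes in brackets. Pancreatic genes, matrix and elastic fibres lie to the right, and MHC class II, B and plasma cell, adipocyte and T cell genes to the left.

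Among genes that fell, the inhibitors of differentiation Id1 and Id4 share a role. They are helix-loop-helix proteins without a DNA-binding region that block other factors of that class, and in many cells they are direct targets of BMP signals. Id1 had 8.60 and 8.09 with Nanog, against 10.66 and 11.20 in controls, and fell by 2.58 on the log2 scale (SE 0.28, adjusted p = 0.0255). Id4 had 5.91 and 6.36 with Nanog, against 8.93 and 8.47 in controls, and fell by 2.57 (SE 0.27, adjusted p = 0.0235). Smad6, an inhibitor of BMP signals that those signals induce, had 5.89 and 5.63 with Nanog, against 7.53 and 7.61 in controls (adjusted p = 0.0309 in the colon arrays alone, 0.0746 in the 8-array fit). Id3 had 5.92 and 5.51 with Nanog, against 7.07 and 7.39 in controls, and passed neither fit (0.0544 and 0.0856). Of 17 genes of the list, 2 fell in the 8-array fit and 3 in the colon arrays alone, against 0.0697% and 0.813% of all genes tested. None rose, and the median was -0.29, and -0.15 over the 25 list genes on the array.

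Promoter sequences of the genes that passed were searched for short motifs on both strands, in windows across the gene start, mostly upstream of it, taken from RefSeq for build GRCm38.p6. Windows were found for 10 of the 13 genes that rose (17 windows) and 4 of the 6 that fell (4 windows). The homeodomain motif TAATGG was in none of these windows, against 7.73% of all 32851 promoters. The palindrome GGCGCC of BMP-responsive elements was in the Id4 window and in 11.9% of all promoters. The E-box CACGTG was in the Fkbp5 window and in 2 overlapping Tor1aip2 windows, against 7.15% of all. The glucocorticoid receptor core ACANNNTGT was in 2 overlapping windows of Fam107a and in that of Rhof, against 6.85%, and not in the Fkbp5 window. TATAAA was in none, against 13.6%. A match is a string of letters and not a shown binding site. The 3 windows below are shown because they hold a match and belong to glucocorticoid-induced and BMP target genes that passed, with the matches in capitals (Id4, chr13:48260866-48261165, plus strand; Fkbp5, chr17:28486100-28486399, minus strand; Fam107a, chr14:8309730-8310029, minus strand), each 5′ to 3′. The window of Ddit4, also on the glucocorticoid list, and the remaining Fam107a window hold none of the motifs.
Id4: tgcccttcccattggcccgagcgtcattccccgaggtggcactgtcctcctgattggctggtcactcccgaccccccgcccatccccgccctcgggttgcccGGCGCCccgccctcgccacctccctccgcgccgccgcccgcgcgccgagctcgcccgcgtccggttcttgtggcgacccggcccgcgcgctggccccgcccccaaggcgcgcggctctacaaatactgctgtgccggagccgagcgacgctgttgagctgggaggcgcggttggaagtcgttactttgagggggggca
Fkbp5: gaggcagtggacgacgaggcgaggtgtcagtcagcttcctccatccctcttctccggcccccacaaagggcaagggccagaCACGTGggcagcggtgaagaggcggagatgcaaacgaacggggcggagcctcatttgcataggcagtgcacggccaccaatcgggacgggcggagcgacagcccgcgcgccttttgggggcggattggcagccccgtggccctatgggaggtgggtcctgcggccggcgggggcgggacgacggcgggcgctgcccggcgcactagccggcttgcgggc
Fam107a: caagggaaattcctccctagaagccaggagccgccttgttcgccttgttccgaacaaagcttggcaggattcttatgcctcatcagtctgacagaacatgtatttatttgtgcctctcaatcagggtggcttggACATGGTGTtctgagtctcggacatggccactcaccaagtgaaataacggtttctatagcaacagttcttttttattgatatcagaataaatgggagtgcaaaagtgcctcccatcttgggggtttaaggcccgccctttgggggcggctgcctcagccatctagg

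Of the lymphocyte genes 1 fell in the 8-array fit. Mzb1, an endoplasmic reticulum protein of B and plasma cells, had 6.65 and 6.72 with Nanog, against 10.27 and 10.17 in controls, and fell by 3.54 (SE 0.36, adjusted p = 0.0212). It was the only gene of 11 measured B and plasma cell genes that passed the 8-array fit, and 3 fell in the colon arrays alone, against 0.813% of all genes tested. All 11 had both Nanog arrays below both controls, against 26.8% of all colon genes. A gene that entered the set only through the controls could hardly lie the other way, and 5 of the 11 were detected on all 4 colon arrays, so this count describes the list and supports nothing. The list median was -1.85, and -1.14 without control replicate 1, and -1.09 over the 18 list genes on the array. Pou2af1, a coactivator of B cells, had 5.92 and 5.28 with Nanog, against 8.39 and 8.03 in controls (adjusted p = 0.0293 in the colon arrays alone, 0.105 in the 8-array fit). Of 12 MHC class II genes, which present antigen to T cells, 11 had both Nanog arrays below both controls, against 26.8% of all colon genes. Of the 12, 7 were detected on all 4 colon arrays, so the limit of the B cell list holds here too. None of the 12 passed the 8-array fit and 5 fell in the colon arrays alone, against 0.813% of all genes tested. The median of these MHC class II genes was -2.03. Ciita, the master regulator of these genes, was below background with Nanog, at 4.33 and 4.26, against 7.25 and 6.58 in controls, at least 3.66-fold lower (0.0268 and 0.0978). H2-Ab1 had 9.41 and 9.20 with Nanog, against 11.20 and 11.75 in controls (0.0353 and 0.106).

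In the T cell list all 12 measured genes had both Nanog arrays below both controls, against 26.8% of all colon genes, and none passed either fit. The median was -1.12, and -0.73 without control replicate 1 and -1.68 without control replicate 2, and -0.74 over the 22 list genes on the array. Cd3e, part of the T cell receptor complex, was not well above background with Nanog, at 4.90 and 5.01, against 6.95 and 5.72 in controls, at least 2.46-fold lower (8-array fit adjusted p = 0.273). Of these 12 genes, 2 were detected on all 4 colon arrays, so the same limit holds. None of 5 T cell markers was detected on either Nanog array, against 3 on each control array. Of 5 B and plasma cell markers, 2 were detected with Nanog on each array, against 4. Their part in the MHC class II result was not tested. Of 27 interferon response genes 2 fell in the colon arrays alone and none passed the 8-array fit, with a median of -1.01, and -0.66 without Nanog replicate 2, and -0.67 over the 34 list genes on the array. Irf1, an interferon-induced transcription factor, had 10.26 and 9.94 with Nanog, against 11.87 and 12.35 in controls (0.0353 and 0.0978). Cx3cr1, a receptor of resident macrophages, was below background with Nanog, at 4.62 and 4.54, against 6.468 and 6.0003, at least 2.29-fold lower (0.0419 and 0.0856), whereas the list of macrophage, dendritic and mast cell genes as a whole had a median of 0.22, and -0.13 without Nanog replicate 2.

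**Figure D4:**
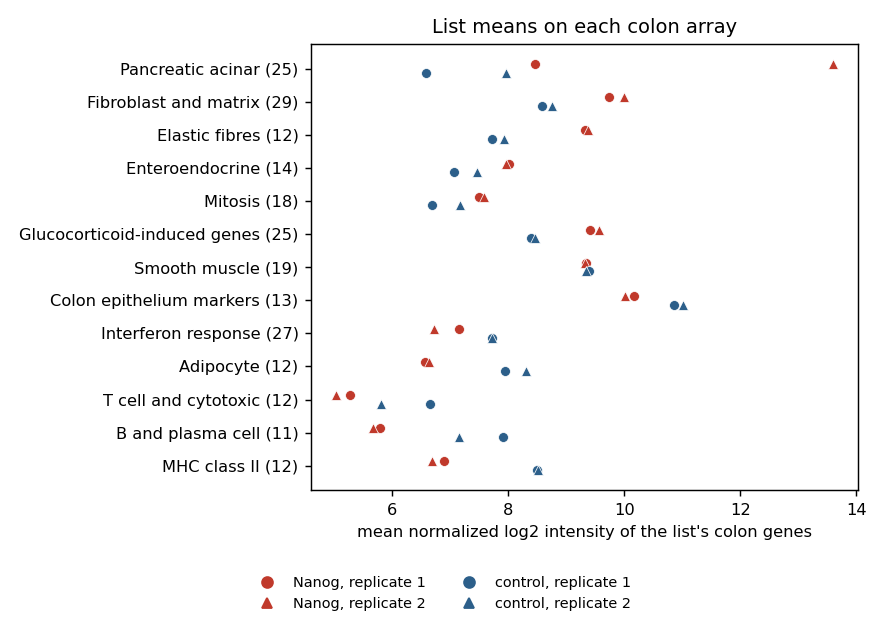
Mean normalized log2 intensity over the measured genes of 13 lists (horizontal axis), for each Nanog array (red) and control array (blue), circles for replicate 1 and triangles for replicate 2. Pancreatic acinar genes average 13.59 on Nanog replicate 2 and between 6.59 and 8.46 on the other 3 arrays, whereas the 2 Nanog arrays lie close together in the matrix, MHC class II and adipocyte lists.

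Genes of fat and of the outer layers did not pass the 8-array fit. All 12 measured adipocyte genes had a lower mean with Nanog and 10 lay below both controls on both Nanog arrays, against 26.8% of all colon genes, with a median of -1.43, and -0.59 over the 16 list genes on the array. Of the 12, 9 were detected on all 4 colon arrays, so the limit given for the B cell list holds here too. None of the 12 passed the 8-array fit and 2 fell in the colon arrays alone, Adipoq and Cidec. Adipoq, the fat hormone adiponectin, had 6.47 and 6.45 with Nanog, against 9.80 and 10.32 in controls (adjusted p = 0.0087 in the colon arrays alone, 0.219 in the 8-array fit). Of 4 adipocyte markers, 1 was detected on each Nanog array, against 2 on each control array. Scd1, a fatty acid desaturase of fat and epithelium, had 8.89 and 8.74 with Nanog, against 12.23 and 12.34 in controls (0.0078 and 0.0784). Upk3b, a gene of mesothelium and urothelium, was below background with Nanog at 4.46 and 4.40, against 7.35 and 7.55 in controls, at least 5.32-fold lower (0.0086 and 0.0871). Fat and mesothelium lie outside the muscle of the colon wall, and how much of either was taken with each sample is not stated in the labels.

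Genes that define gut epithelium did not pass the 8-array fit, and Cdx2 fell in the colon arrays alone. Cdx2, the homeodomain factor that sets intestinal identity, had 6.82 and 5.98 with Nanog, against 10.17 and 10.25 in controls, a difference of -3.81 ± 0.69 (SE, adjusted p = 0.0156 in the colon arrays alone, 0.0978 in the 8-array fit). Its relative Cdx1 had 10.05 and 10.13 with Nanog, against 10.42 and 10.51 in controls (8-array fit adjusted p = 0.847). Klf4, a factor of differentiating surface cells, had 9.61 and 9.65 with Nanog, against 11.26 and 10.75 in controls (0.118). Of 19 gut transcription factors, 1 fell in the colon arrays alone, with a median of -0.45, and of 13 colon epithelium markers the same gene fell, with a median of -0.63. Both Nanog arrays lay below both controls in 13 of the 19 and in 9 of the 13, against 26.8% of all colon genes. In each list 1 gene lay above both controls. All genes of these 2 lists were detected on all 4 colon arrays. Of 15 Hox genes, which hold the position of a segment along the gut, 14 had a lower mean with Nanog, against 4198 of the 8310 colon genes. The list median was -0.39, and -0.10 over the 34 list genes on the array, and 11 of the 15 were detected on all 4 colon arrays. Without control replicate 1 the median was -0.24, and without control replicate 2 it was -0.75. Of the Hox genes 1, Hoxa7, fell in the colon arrays alone. Hoxa7 had 6.95 and 7.24 with Nanog, against 9.48 and 9.07 in controls (0.0284 and 0.376). The brush border gene Vil1 had 10.32 and 9.99, against 11.34 and 10.54 (8-array fit adjusted p = 0.678).

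Crypt genes had a median of -0.66 over the 12 measured genes and -0.083 over the 25 list genes on the array, with 2 that fell in the colon arrays alone. Axin2, a feedback target of Wnt signals, had 6.10 and 6.39 with Nanog, against 8.47 and 7.96 in controls (0.0388 and 0.256). Ccnd1, cyclin D1, had 8.88 and 9.44 with Nanog, against 11.33 and 11.01 in controls (0.0403 and 0.304). None of 14 Notch genes passed either fit, and Hes1, the Notch target that holds back secretory fate, had 8.20 and 7.97, against 9.63 and 9.14 in controls (8-array fit adjusted p = 0.124). Ihh, the epithelial Hedgehog ligand, had 6.62 and 6.77 with Nanog, against 8.57 and 8.09 in controls (0.047 and 0.106). Of 5 pluripotency genes measured in colon, Tbx3 fell in the colon arrays alone, with 5.69 and 5.31 with Nanog, against 7.25 and 7.10 in controls (0.0403 and 0.118).

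Cell division genes were followed in a mitosis and a DNA replication list. Of 18 mitosis genes, 17 had a higher mean with Nanog and 14 lay above both controls on both arrays, against 26.6% of all colon genes, and none passed either fit. The median was 0.61, and 0.35 without control replicate 1, and 0.23 over the 32 list genes on the array. Nusap1, a spindle protein, had 9.44 and 9.41 with Nanog, against 7.93 and 8.30 in controls (8-array fit adjusted p = 0.188). Of 31 DNA replication genes, none passed the 8-array fit, and Mcm6, a helicase subunit, fell in the colon arrays alone, with 7.36 and 7.31 with Nanog, against 8.98 and 9.63 in controls (0.0403 and 0.0746). The list median was -0.16, and 0.058 without control replicate 2. None of 19 p53 targets passed either fit, with a median of 0.23, and 0.39 without control replicate 1.

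Of the lists of secretory lineages, that of goblet cells held 1 gene that fell. Nxpe2, from the goblet cell list, had 6.32 and 5.10 with Nanog, against 8.96 and 9.19 in controls, and fell by 3.37 (SE 0.39, adjusted p = 0.0313). It was the only gene of 18 that passed either fit. The secreted goblet cell proteins Clca1, with 13.58 and 13.10 against 13.84 and 14.40 in controls, and Tff3, with 12.56 and 12.57 against 12.50 and 12.54 in controls, did not pass (8-array fit adjusted p = 0.482 and 0.964). Of 14 enteroendocrine genes, 13 had a higher mean with Nanog, against 4112 of the 8310 colon genes. None of the 14 passed the 8-array fit and 2 rose in the colon arrays alone, with a median of 0.81, and 0.22 over the 22 list genes on the array. Chga, a granule protein of these cells, had 8.07 and 8.22 with Nanog, against 6.18 and 6.35 in controls (0.0268 and 0.0856). Resp18, a granule protein of neuroendocrine cells that stood next to the threshold, had 8.17 and 8.10, against 6.55 and 6.66 (0.0353 and 0.0746). Rhof, a small GTPase of filopodia that belongs to none of the lists, had 4.86 and 5.28 with Nanog, against 7.54 and 7.59 in controls, and fell by 2.49 (SE 0.26, adjusted p = 0.0231).

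None of the genes in the oxidative phosphorylation, glycolysis, cholesterol and P450 lists passed the 8-array fit. None of 33 oxidative phosphorylation genes passed either fit, with a median of 0.02. Glycolysis had a median of -0.26 over 22 genes with no gene past the threshold in either fit. Of 18 genes of cholesterol synthesis and uptake, none passed the 8-array fit and 2 fell in the colon arrays alone, with a median of -0.51, and -0.27 without control replicate 2. Hmgcs1, an early enzyme of the pathway, had 11.78 and 11.38 with Nanog, against 13.18 and 13.60 in controls (0.0408 and 0.226). Of 26 cytochrome P450 and conjugation genes, 2 rose and 2 fell in the colon arrays alone. None passed either fit among 19 genes of claudins and junctions, 25 of heat shock and the endoplasmic reticulum, 17 immediate early genes, 14 of endothelium, 14 of inflamed epithelium, 9 of small intestine absorption and 6 of enteric neurons and glia. Within the inflamed epithelium list, Lcn2, an iron-scavenging protein of stressed epithelium, had 8.07 and 11.91 with Nanog, against 4.75 and 5.47 in controls (0.107 and 0.184), with replicate 2 again the highest.

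Of the 8310 colon genes, 102 were detected on both Nanog arrays and neither control array, and 177 on both control arrays and neither Nanog array. Among those seen only with Nanog, the largest bounds belonged to pancreatic genes. Ctrb1, chymotrypsinogen, had 6.597 and 14.14 with Nanog, against 4.44 and 4.83 in controls, at least 41.3-fold higher by the mean of the Nanog arrays and 3.02-fold by replicate 1 alone, with an adjusted p of 0.562. Reg2, a Reg lectin of the pancreas, had 5.06 and 12.75, against 4.26 on both control arrays, at least 14.95-fold higher by the mean and 1.04-fold by replicate 1 alone (8-array fit adjusted p = 0.572). In both genes the second Nanog array is far above the first. None of the 25 measured acinar genes passed either fit, with a median of 4.13, and 1.14 without Nanog replicate 2.

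The Nanog effects of colon and intestine, which have separate controls, were then set side by side. In intestine 14 genes passed, 0.163% of those tested, and 8 genes passed in both tissues, all with the same sign, which is 42.1% of the colon genes and 57.1% of the intestine genes. These were Csrp1, Fkbp5, Ddit4, Depp1, Fam107a, Tom1l2, Tor1aip2 and Pdrg1. Best2, Fxyd4, Nxpe2 and Casp14 were below background on all 4 intestine arrays, so no intestine effect could be measured. No gene passed limma's test of the difference between the tissues, 0% of the genes tested, with 361 of the 8607 genes and 335 of the colon genes (4.03%) at an unadjusted p under 0.05, so none of the changes is shown to be particular to colon. Among the called genes that were detected in intestine, the smallest adjusted p of that difference was 0.378, for Arg2 and Rgs16. Arg2 had 10.96 and 10.39 in colon with Nanog against 5.73 and 6.04 in its controls, and in intestine 11.36 and 11.87 with Nanog against 11.54 and 10.42, a difference of the effects of 4.15 ± 0.59 (SE, adjusted p = 0.378).

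**Figure D5:**
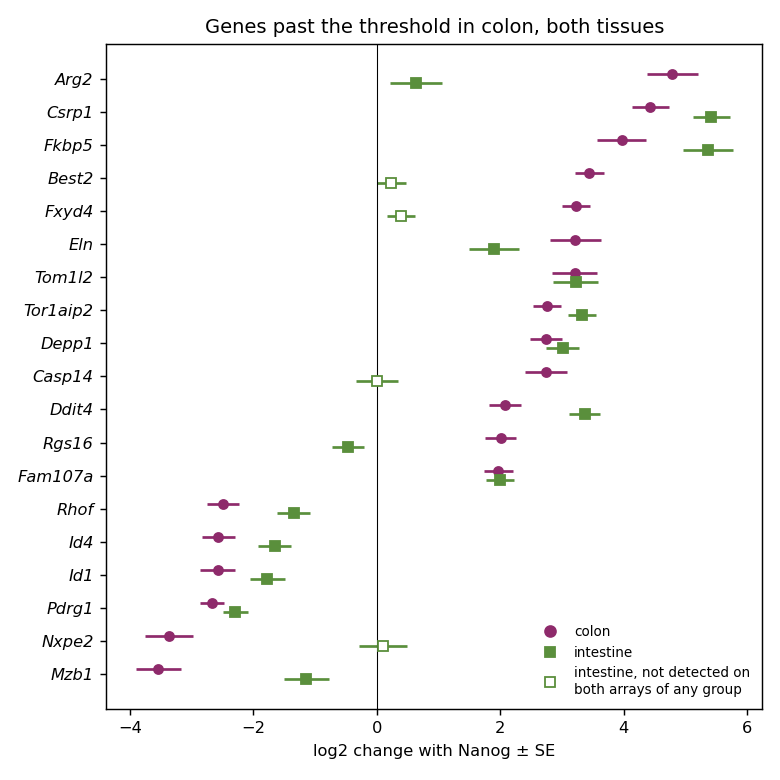
Log2 change with Nanog ± SE (horizontal axis) of the 19 genes that passed in colon, in colon (purple circles) and intestine (green squares, open where neither intestine group was detected on both arrays). Csrp1, Fkbp5, Depp1, Tom1l2 and Fam107a change alike in direction in both tissues, and Arg2 changes by 4.78 in colon and 0.63 in intestine.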

How the data were processed

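Biotin-labelled cRNA from 8 mouse samples was read on Illumina bead arrays. BeadStudio 3.2, RMA and lumi are listed in the submitters' processing notes without order or settings. The deposited unnormalized values are the intensity of each of 25697 probes, a mean over beads. A deposited detection p-value ranks each probe among negative controls. The authors also deposited log2 values after normalization, used here as an alternative.

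Background was removed from the intensities by limma 3.58.1 (R 4.3.3) with the normal-exponential model, using negative controls inferred from detection p-values and an offset of 16, before log2 and quantile normalization. Detection at p under 0.01 on both arrays of any 1 group kept 12064 probes. Symbols came from the array annotation, updated through Entrez identifiers with GRCm38.p6, and 1719 probes had none. Each of the 8607 genes was read from its brightest probe, and 5 genes that met the colon rule only through a dimmer probe were left out of the 8310. All 8 arrays were fitted with 4 group means (4 residual and 3.07 prior degrees of freedom), and p-values were adjusted by Benjamini-Hochberg over 8607 genes.

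The colon comparison and the 43 gene lists were chosen with earlier results of these data known, so no list was tested. Named genes are examples from the called genes, the 5 each way nearest the threshold, a panel, the 4 list members with the smallest p, the 5 largest bounds each way, the 10 largest changes each way in the colon arrays alone and the smallest p of the tissue difference. The procedure was tested on simulated data. Alternatives covered the authors' values, background, scaling, filters, probes, replicate block, variance model, array weights, the colon arrays alone, a minimum of 2-fold and leaving out single arrays. Those that leave out an array from the colon arrays alone were chosen after seeing the data.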

Additional observations from a re-analysis of the deposited data

Results flagged for a closer look

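Rgs16 differed between the tissues in direction, since its Nanog arrays lay on opposite sides of their controls in colon and intestine. In colon it had 8.59 and 8.86 with Nanog, against 6.76 and 6.68 in controls. In intestine it had 5.35 and 5.43 with Nanog, against 6.12 and 5.58 in controls, a change of -0.47 (limma adjusted p = 0.67). The difference of the effects, colon minus intestine, was 2.47 ± 0.36 (SE) and did not pass limma's test over all genes (adjusted p = 0.378).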

How the results depend on the processing

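The count of genes that passed in colon, 19 in the main fit, was between 15 and 24 under the authors' values (24, of which 12 rose and 12 fell), cyclic loess (15), median scaling (15), an offset of 50 (22), no background correction (24), detection on all 4 colon arrays (18), genes detected in colon only (23), a detection p under 0.05 (19), the mean of a gene's probes (24) and a variance trend with robust estimation (22). It was 7 with no detection filter, 4 with a 2-fold minimum, 167 with array weights (71 rose and 96 fell) and 128 with the colon arrays alone. The genes were not always the same. Of the 24 under the authors' values 13 were among the 19, and of the 7 with no detection filter 5 were. Cyclic loess shared all of its 15, and genes detected in colon only shared 19 of 23. With the replicate number as a block there were 18 (10 rose and 8 fell, 16 shared with the 19), and 71 with that block in the colon arrays alone. Same-numbered colon samples deviated together with r = 0.144 over genes, and group pairs over the series with r from 0.113 to 0.468, but each pair of groups has 2 numbers only and the labels tie no number to an animal or day. The sum over acinar markers was higher on replicate 2 in all 4 groups. Leaving out 1 array gave 0 to 49 genes, 49 without either intestine control, 8 without either intestine Nanog array, 11 without colon Nanog replicate 1 and 0 without any other colon array. In the colon arrays alone it gave 3 to 115, namely 3 without Nanog replicate 2, 74 without Nanog replicate 1, 35 without control replicate 1 and 115 without control replicate 2. The difference between tissues had 3 genes with no background correction and 3 with an offset of 50, and leaving out 1 array gave 0 to 20, with 20 without intestine control replicate 1. The 279 genes detected in 1 colon group only became 121 at a detection p under 0.05 and 414 to 462 with 1 colon array left out, where a group of 1 array is easier to pass. Of named genes, 3 not past the threshold changed sign. Sult1a1 ranged from -0.262 without Nanog replicate 1 to 0.579 without Nanog replicate 2, and was -0.26 without replicate 1 in the colon arrays alone. Reg4 ranged from -0.59 to 0.373 with an array left out (0.368 without control replicate 2), and was 0.367 and 0.377 without the same arrays in the colon arrays alone. Acta2 was 0.228 with the mean of its probes, -0.0802 to 0.059 with an array left out (0.022 without control replicate 2), and 0.029 and 0.062 in the colon arrays alone. The medians of 9 lists changed sign when 1 colon array was left out (10 values). Among these, without Nanog replicate 2, the cytochrome P450 and conjugation median went from -0.19 to 0.083. The inflamed epithelium median went from -0.12 to 0.13 without the same array. The causes were not tested. Probes near background limit what can be called, since a gene not well above background in a group has only a bound there.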
